A study of Canis lupus familiaris with 21 samples.

Results

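Toll-like receptors (TLRs) are membrane receptors that recognize conserved molecules of microbes and of damaged cells. TLR1, TLR2, TLR4 and TLR10 are known mainly from the cell surface, whereas TLR3, TLR7 and TLR9 signal from endosomes, where they meet nucleic acids. Most of them pass the signal on through the adaptor MYD88, while TLR3 uses TICAM1, and both routes end in NF-κB and interferon regulatory factors. Langerhans cells, the dendritic cells of the epidermis from which canine cutaneous histiocytoma (CCH) derives, are among the cells that carry such receptors, as are macrophages, B cells and plasmacytoid dendritic cells. The genes described here were chosen by symbol. Of 10 symbols looked for, 8 were read from the count tables (TLR1, TLR2, TLR3, TLR4, TLR7, TLR9, TLR10 and MYD88), and TLR5 and TLR6 were not analysed here. The 8 genes take 9 of 21399 entries, since TLR9 has 2 entries, named TLR9_5 and TLR9_6 after the endings of their names in the tables, and the meaning of these endings is not given in the sources used here.

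CCH is a skin tumor of dogs that often regresses on its own while lymphocytes move in, and its stages are told apart by how far the lymphocytes reach. The 21 samples were formalin-fixed, paraffin-embedded tumors of privately owned dogs that were sequenced from the 3′ ends of their mRNA: 5 tumor cell-rich samples of stage 1 (group 1), 5 tumor cell-rich areas of stage 2 (group 2a), 6 lymphocyte-rich areas of stage 2 (group 2b) and 5 lymphocyte-rich samples of stage 3 (group 3). The labels give ages of 0.5 to 5 years in group 1, where 1 age is not stated, of 0.6 to 3 years in group 2a, of 0.3 to 6 years in group 2b and of 1.5 to 9 years in group 3. All dogs carried the tumor and no treatment is named, so there was no healthy skin to compare with. In group 2b, 4 of 6 samples pooled tissue of 3 to 4 dogs, and replicates of all groups came from different dogs. These are whole areas cut from tumors, in which fewer cells of a type and less RNA per cell cannot be told apart.

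The samples held 2113393 to 3559404 counts each, with a median of 2514859, and the 9 entries together took 587 to 1380 of them. Among 7 T cell genes, the summed normalized count was 2211 to 3291 in group 2b and 2387 to 3610 in group 3, against 379 to 1220 in group 2a and 42.5 to 1561 in group 1, so the lymphocyte-rich label was borne out by the T cell genes in all samples of groups 2b and 3. Of 9 genes listed for Langerhans-type tumor cells, the 8 tested had no change past both thresholds in any of the 4 group comparisons, though 3 passed in the test of whether the stage step differed by area, and their sums overlapped between all groups (4103 to 7428 over the 21 samples). DV200, the share of RNA fragments over 200 nucleotides, averaged 68.5% ± 2.46 (SD, n = 5) in group 1, against 73.2% ± 2.09 (n = 5) in group 3, 73.7% ± 2.69 (n = 5) in group 2a and 74.6% ± 1.73 (n = 6) in group 2b. These values, and the fits with DV200, use the sample labels, and the label of 1 group 3 sample (71.2%) differs from the study's supplement. Group 1 thus had a lower mean DV200 as well as an earlier stage, and these cannot be told apart in its comparisons. By the RNA quality number (RQN) in the study's supplement, all group 2b samples lay below all group 2a samples. Area and RQN thus differ together in 2b vs 2a and cannot be told apart.

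Levels are given as normalized counts, the deposited counts divided by 1 size factor per sample. The genes had the same broad order in every group. MYD88 led with group means of 373 to 569.9, TLR9_5 followed with 222 to 256, then TLR4 with 75.6 to 109.6 and TLR7 with 59.0 to 84.1, then TLR2 with 31.4 to 64.3 and TLR3 with 15.2 to 35.0. TLR1 averaged 6.10 to 12.8, TLR9_6 2.29 to 19.3 and TLR10 0 to 2.42. TLR9_5 stood above the next entry without overlap of samples in all 4 groups, whereas MYD88 and TLR9_5 overlapped in groups 1, 2a and 3 and were apart in group 2b. All neighbours below TLR9_5 overlapped. A 3′ count is not scaled by length, so this order also depends on how well the annotated 3′ end of each gene catches its reads.

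**Figure D1:**
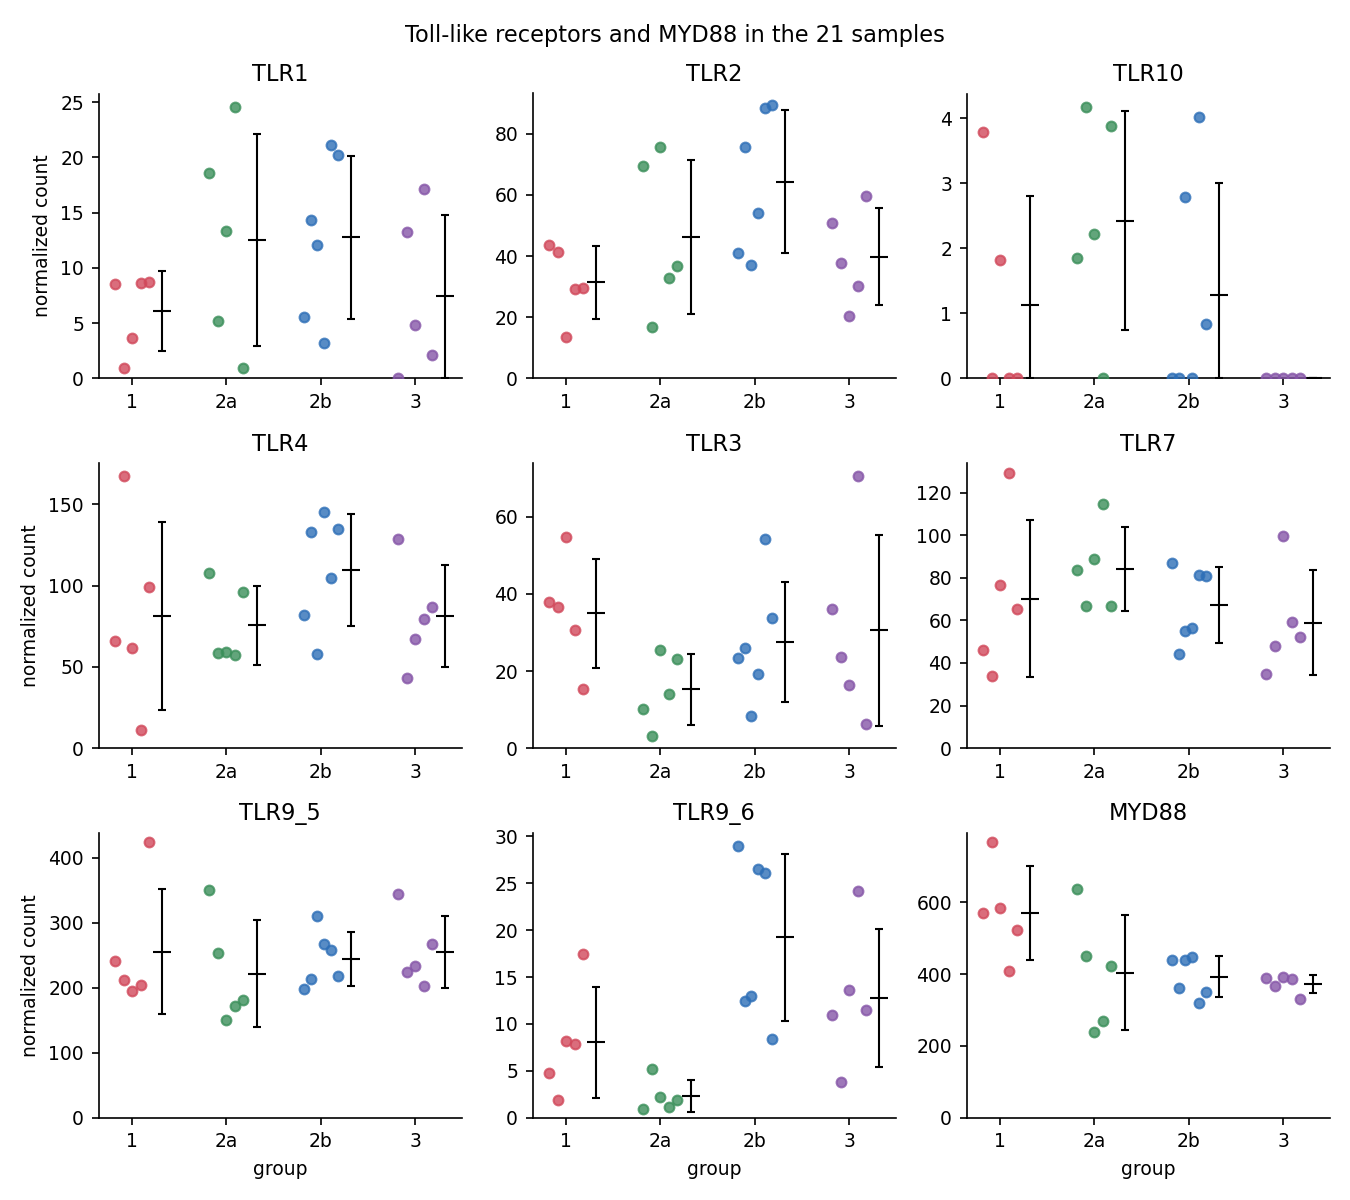
Normalized counts (y axis, from 0, scaled for each gene) of the 9 entries in each sample of groups 1, 2a, 2b and 3 (x axis), with 1 point per sample and the mean ± SD as a black bar cut at 0. TLR9_6 in group 2b lies above all group 2a samples, MYD88 in group 1 lies above all group 3 samples, and most other panels overlap across all groups.

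Few differences between groups passed the test. Comparisons are written with the group of interest first, so that 2a vs 1 gives the level in group 2a relative to group 1. A gene was called where edgeR's quasi-likelihood test gave a p, adjusted by Benjamini-Hochberg over all genes tested, no higher than 0.05 and the log2 fold change was 1 or more in either direction. In the 2 stage comparisons that the study made, 0 of 6 tested entries were called in 2a vs 1 and 0 of 8 in 3 vs 2b. DESeq2 and limma called 0 in both as well, and in edgeR 1 entry in each had an unadjusted p under 0.05, beside 17.9% and 13.1% of all genes. Over all genes, edgeR called 0.393% in 2a vs 1 (44 genes) and 0.0428% in 3 vs 2b (5 genes), where DESeq2 called 262 and 52. Between the kinds of area, 1 of 8 tested entries was called in 2b vs 2a, beside 9.55% of all genes. In 3 vs 1, where stage differs as well as area, 0 of 7 were called, beside 8.33% of all genes. DESeq2 and limma also called 1 and 0 there, and in each comparison 1 entry had an unadjusted p under 0.05, beside 30.0% and 29.8% of all genes. The 8 entries had a median log2 fold change of 0.30 in 2b vs 2a, where all genes had -0.01, and the 7 entries had 0.00 as their median in 3 vs 1 to 2 decimals, where all genes also had 0.00. Comparisons that name the same group share its samples. The step from the earlier to the later stage was compared between lymphocyte-rich areas (stage 2 to 3) and tumor cell-rich areas (stage 1 to 2) in all 21 samples. Area and stage interval differ together in this test and cannot be told apart. In it, 0 of 8 entries passed an adjusted p of 0.05, beside 5.34% of all genes. DESeq2 also called 0 there, and 1 entry had an unadjusted p under 0.05, beside 20.7% of all genes.

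**Figure D2:**
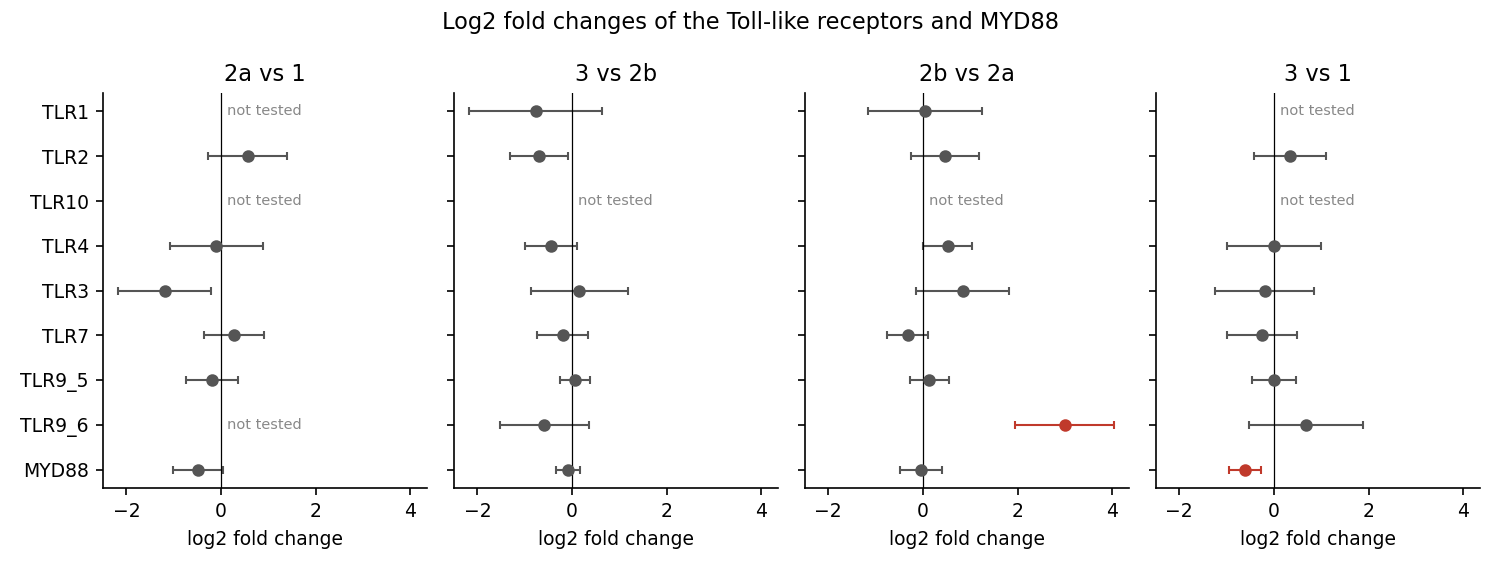
Log2 fold changes (x axis) of the 9 entries (y axis) in the 4 comparisons, as points with bars for a normal 95% interval from an SE derived from edgeR's F, red where the adjusted p was at most 0.05. The bars are narrower than the F-test implies: that of TLR4 in 2b vs 2a lies above 0 (0.01 to 1.04), at an unadjusted edgeR p of 0.0649. Only TLR9_6 in 2b vs 2a and MYD88 in 3 vs 1 are red, at 3.00 and -0.61.

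Among the surface receptors, TLR4, the receptor for bacterial lipopolysaccharide, lies on chromosome 11 (positions 71767611 to 71778394, UU_Cfam_GSD_1.0). Its normalized counts in group 1 were 66.1, 168, 61.9, 11.02 and 99.4, the widest relative spread of TLR4 in any group. In group 2a they were 108, 58.4, 58.9, 57.3 and 95.9, which lies inside the range of group 1. Group 2b had 82.2, 133, 57.7, 145, 105 and 135, and group 3 had 129, 43.4, 66.9, 79.6 and 86.9. The means of 109.6 ± 34.5 (SD, n = 6) in group 2b and 75.6 ± 24.2 (n = 5) in group 2a gave a log2 fold change of 0.53 with an edgeR adjusted p of 0.198, and their samples overlapped. TLR4 did not pass the test in the other 3 comparisons either, with edgeR log2 fold changes of -0.10 (SE 0.504) in 2a vs 1, -0.44 (SE 0.280) in 3 vs 2b and 0.00 (SE 0.507) in 3 vs 1. The genes that work with it on the cell surface, CD14 and LY96, did not pass in any of the 4 comparisons.

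TLR2, which recognizes bacterial lipopeptides together with TLR1 or TLR6, lies on chromosome 15 (51821784 to 51824151). In the lymphocyte-rich groups its normalized counts were 41.1, 75.7, 37.2, 54.1, 88.4 and 89.4 in group 2b and 51.0, 37.7, 20.4, 30.2 and 59.7 in group 3. In group 2b, 3 samples lay above all of group 3 and the rest overlapped. The log2 fold change of 3 vs 2b was -0.70 (SE 0.315), with an unadjusted p of 0.0422 and an adjusted p of 0.361 in edgeR. In the tumor cell-rich groups the values were 43.5, 41.2, 13.7, 29.1 and 29.5 in group 1 and 69.6, 16.7, 75.5, 32.7 and 36.8 in group 2a, with a log2 fold change of 0.56 (SE 0.428) and an edgeR adjusted p of 0.539. With DV200 in the fit this direction turned (-0.36, adjusted p 0.915). The 2 stage steps differed by -1.26 on the log2 scale (SE 0.543), with an unadjusted p of 0.0300 and an adjusted p of 0.182 in edgeR. That difference did not pass.

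TLR1 and TLR10, relatives of TLR2, lie close together on chromosome 3 (74115278 to 74117647 and 74141129 to 74143552). Both were near the limit of detection. TLR1 had 0 to 24 counts per sample and more than 3 counts in 16 of 21 samples, and TLR10 had 0 to 4 counts and more than 3 in 4 of 21. In group 3, TLR10 had 0 counts in 5 of 5 samples, which allows up to 3 counts per sample, and the other groups held no more than 4. TLR10 had too few counts for the main tests and passed in none with all genes tested. Its lowest unadjusted edgeR p there was 0.0224, for the difference of the stage steps (-4.56, adjusted p 0.207). That of 3 vs 2b was 0.0329 (-3.53, adjusted p 0.396). At this depth a difference could not be established. TLR1 was tested in 3 vs 2b (log2 fold change -0.77, SE 0.716, edgeR adjusted p 0.689) and in 2b vs 2a (0.04, SE 0.612, edgeR adjusted p 0.974). RefSeq gives TLR1 and TLR10 as 2370 and 2424 bases in 1 transcript each, both multiples of 3, as the coding length of a model without untranslated regions would be, while 3′ sequencing reads lie next to the end of the mRNA. TLR2, of 2368 bases in 1 transcript, had 15 to 106 counts per sample, and the length of TLR7 (25497) is a multiple of 3 as well. A long noncoding gene, LOC119876151, overlaps TLR10. The part of the TLR1 and TLR10 gene models in their low counts was not tested.

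Among the receptors of nucleic acids, TLR9 stood apart through its 2 entries. TLR9 recognizes unmethylated CpG DNA and is known from plasmacytoid dendritic cells and B cells, and it lies on chromosome 20 (37936949 to 37947576) with 2 RefSeq transcripts, which the 2 entries could not be matched to. TLR9_5 held most of the counts, with group means of 222 ± 82.1 (SD, n = 5) in group 2a, 244 ± 42.0 (n = 6) in group 2b, 255 ± 55.5 (n = 5) in group 3 and 256 ± 95.6 (n = 5) in group 1. Its log2 fold changes were -0.20 (SE 0.278), 0.06 (SE 0.162), 0.14 (SE 0.210) and 0.00 (SE 0.235) in 2a vs 1, 3 vs 2b, 2b vs 2a and 3 vs 1. The 95% interval of the 3 vs 2b difference reached from -0.26 to 0.37, and that of 2b vs 2a from -0.28 to 0.55.

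TLR9_6 was the only entry called in any comparison. Its normalized counts were 28.9, 12.4, 13.0, 26.5, 26.1 and 8.43 in group 2b, and 0.928, 5.21, 2.22, 1.17 and 1.94 in group 2a. All 6 lymphocyte-rich samples lay above all 5 tumor cell-rich samples of the same stage, with a log2 fold change of 3.00 (SE 0.532) and an edgeR adjusted p of 0.00171. Among all genes, 5.98% were called higher in this comparison and 6.07% had all group 2b samples above all group 2a samples. Area and RQN differ together between these groups and cannot be told apart. The raw counts were 10 to 31 in group 2b and 1 to 5 in group 2a, so the entry passed the count filter only through group 2b, and among entries that pass in this way a difference is built in. With all genes tested, the log2 fold change was 2.99 with an adjusted p of 0.00244. Without any 1 sample it was 2.78 to 3.52 with adjusted p-values of 0.00161 to 0.00525. With the 2 group 2b samples of 1 dog alone and all genes tested, it was 3.09 with an adjusted p of 0.0916, and with the 4 pooled samples alone 2.94 with an adjusted p of 0.00926. Added up, the 2 TLR9 entries had a log2 fold change of 0.23 and an adjusted p of 0.502 between these groups.

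In the other groups TLR9_6 lay between these levels. Group 3 had 10.99, 3.77, 13.6, 24.2 and 11.5, and group 1 had 4.72, 1.87, 8.20, 7.87 and 17.5. These ranges overlapped each other and that of group 2b. The log2 fold change was 0.68 (SE 0.614, edgeR adjusted p 0.507) in 3 vs 1 and -0.58 (SE 0.477, edgeR adjusted p 0.631) in 3 vs 2b. In 2a vs 1 TLR9_6 had too few counts for the main test. With all genes tested it was -1.71 (SE 0.796) there, with an unadjusted p of 0.0471 and an adjusted p of 0.369 in edgeR. The share of TLR9 counts that fell in TLR9_6 was 3.72% to 12.8% in group 2b, with a median of 7.27%, and 0.264% to 2.01% in group 2a, with a median of 1.06%. In group 1 it was 0.873% to 4.02% and in group 3 1.65% to 10.6%.

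**Figure D3:**
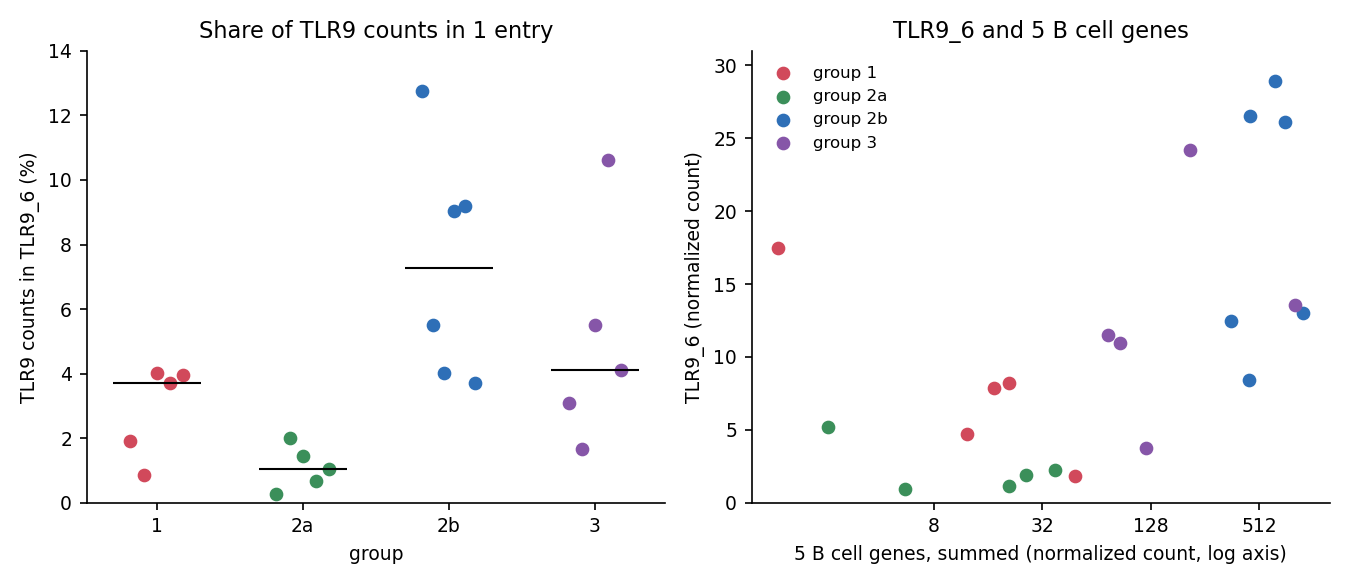
On the left, the share of TLR9 counts in TLR9_6 (y axis, %) in each sample of the 4 groups (x axis), with the median as a line. On the right, the normalized count of TLR9_6 (y axis) against the summed normalized count of 5 B cell genes (x axis, log scale) in the same samples. They are those listed other than CD22 and BANK1, which were left out after seeing the values. The group 2b samples lie between sums of 358 and 904 and the group 2a samples between 2.08 and 37.8. A difference is built in for those called in 2b vs 2a, which passed the count filter through group 2b. With all 7 genes the sums were 947 to 1658 and 518 to 995, which overlap.

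B cell genes moved in the same comparison. Of 7 B cell genes tested, 4 were called higher in group 2b than in group 2a (CD79A, CD79B, MS4A1 and PAX5), beside 5.98% of all genes. MS4A1, which encodes CD20, was at 0 in all samples of groups 1 and 2a and at 9.55 to 23.3 in group 2b. In group 2a at most 2 of 5 samples reached 10 counts for any of these 4 genes, so they too passed the count filter through group 2b, and a difference is built in for them. The summed level of the 7 genes was 947 to 1658 in group 2b, 518 to 995 in group 2a, 522 to 687 in group 1 and 314 to 1911 in group 3. CD22 and BANK1 made up most of this sum in groups 1 and 2a, and their log2 fold changes in 2b vs 2a were -0.01 (SE 0.205) and 0.14 (SE 0.335). Without them, a choice made after seeing the values, the sum of the other 5 genes was 358 to 904 in group 2b, 2.08 to 37.8 in group 2a, 1.09 to 48.7 in group 1 and 74.4 to 816 in group 3. Within group 2b, the samples with the highest and the lowest TLR9_6 had sums of 626 and 451, and the sample with the highest sum had 13.0 for TLR9_6. In group 3, the sample with the highest TLR9_6 (24.2) had a sum of 212, and that with the highest sum (816) had 13.6. In group 1, the sample with the highest TLR9_6 (17.5) had the lowest sum of these genes in the group. Of the genes listed for plasmacytoid dendritic cells, 3 were tested and SPIB and BLNK, which B cells use too, were called higher in group 2b than in group 2a. TCF4, the other one tested, passed the adjusted p but not the fold threshold there (0.86, edgeR adjusted p 0.000903). At any fold size, 8.90% of all genes passed that p with a higher level. In 3 vs 1 TCF4 was called higher (1.54, edgeR adjusted p 0.0169), beside 4.92% of all genes, and SPIB and BLNK did not pass. SPIB reached 10 counts in 0 of 5 group 2a samples. SPIB too thus passed the count filter only through group 2b, and a difference is built in for it. The defining IL3RA averaged 4.69 in group 2a and 5.82 in group 2b and was not tested. The sum of the 4 genes, SPIB included, was 697 to 886 in group 2b and 294 to 402 in group 2a. The part of these cells in TLR9_6 was not tested.

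TLR7, which recognizes single-stranded RNA and lies on the X chromosome (9302542 to 9328038), passed in no comparison. Its normalized counts were 46.3, 33.7, 76.5, 129 and 65.6 in group 1, and 83.5, 66.7, 88.9, 115 and 66.8 in group 2a. In group 2b the 6 samples lay between 44.1 and 86.8, and in group 3 the 5 samples between 35.0 and 99.9. All groups overlapped, and the log2 fold changes reached from -0.32 (2b vs 2a, SE 0.219) to 0.27 (2a vs 1, SE 0.323). TLR7 and TLR4 ran in opposite order in group 1, where replicate 4 had the lowest TLR4 (11.02) and the highest TLR7 (129), and replicate 2 had the highest TLR4 (168) and the lowest TLR7 (33.7). Across the 21 samples, which share 4 groups and differ in depth, Pearson's r of log2(normalized count + 1) was -0.54 for TLR4 and TLR7, the lowest of any pair of entries, and 0.49 for TLR1 and TLR7, the highest.

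TLR3, the receptor for double-stranded RNA, which is known from dendritic cells and keratinocytes, lies on chromosome 16 (45543452 to 45571950) and has 4 RefSeq transcripts. It had 37.8, 36.5, 54.6, 30.7 and 15.3 normalized counts in group 1 and 10.2, 3.13, 25.6, 14.03 and 23.2 in group 2a. In group 1, 4 of 5 samples lay above all of group 2a. The log2 fold change was -1.19 (SE 0.497), with an unadjusted p of 0.0330 and an adjusted p of 0.232 in edgeR, so it did not pass. With DV200 in the fit it was -2.45 with an adjusted p of 0.474. Keratinocyte genes had lower levels in group 2a as well, with a median log2 fold change of -2.08 over the 7 tested. Of these, 0 were called and 5 had an unadjusted edgeR p under 0.05, beside 0.393% and 17.9% of all genes. Their sums were 267 to 3028 in group 2a against 813 to 12210 in group 1. Their part in the TLR3 value was not tested. In group 2b TLR3 lay between 8.38 and 54.3 and in group 3 between 6.28 and 70.5, so that its spread within a group was wide. TICAM1, the adaptor of TLR3, averaged 24.0 in group 2b, 26.7 in group 1, 27.4 in group 2a and 32.4 in group 3 and passed in no comparison. It was the only one of the 4 other adaptors listed (TIRAP, TICAM1, TICAM2 and SARM1) with enough counts to be tested.

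MYD88, the adaptor that most TLRs and the interleukin-1 receptors share, lies on chromosome 23 (8138449 to 8142140). In group 1 its normalized counts were 569.8, 767, 583, 408 and 522, and in group 3 they were 389.7, 366, 391, 386 and 331. All 5 stage 1 samples lay above all 5 stage 3 samples, by a narrow margin between 408 and 391. The log2 fold change was -0.61 (SE 0.170) with an edgeR adjusted p of 0.0333, which passed the p threshold but not the fold threshold. Among all genes, 6.81% had a lower level at this p and 5.83% had all group 3 samples below all group 1 samples. The adjusted p did not pass with DV200 in the fit, where the log2 fold change was -0.67 and the adjusted p 0.255, or with all genes tested (-0.63, adjusted p 0.0508). Leaving out 1 sample at a time gave -0.71 to -0.49, and the adjusted p stayed at or under 0.05 in 2 of 10 such fits, those without group 1 replicate 4 (0.0139) and without group 3 replicate 3 (0.0468). Stage, area and RNA quality differ together between these groups and cannot be told apart.

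In the stage 2 groups, MYD88 was at 637, 451, 238, 270.1 and 423 in group 2a and at 439.7, 362, 440.3, 449, 321 and 349 in group 2b. The group 2a samples spread the most and enclosed all of group 2b. The log2 fold change was -0.04 (SE 0.223, edgeR adjusted p 0.926) in 2b vs 2a, with a 95% interval from -0.48 to 0.39. It was -0.49 (SE 0.267, edgeR adjusted p 0.359) in 2a vs 1 and -0.08 (SE 0.128, edgeR adjusted p 0.835) in 3 vs 2b. The SD of MYD88 was 160.2 in group 2a and 129.8 in group 1, against 56.0 in group 2b, which is mostly pools, and 25.4 in group 3.

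The other genes of the pathway were taken from 6 lists of 61 genes in all. Between the stages none of them was called, of 46 tested in 2a vs 1 and 48 in 3 vs 2b, beside the 0.393% and 0.0428% of all genes. In each, 8 had an unadjusted edgeR p under 0.05, beside 17.9% and 13.1% of all genes. Between the kinds of area, 4 of 48 were called higher and 0 lower in 2b vs 2a, beside 5.98% and 3.57% of all genes. In 3 vs 1, where stage and DV200 differ as well as area, 8 of 47 were called higher and 1 lower, beside 4.92% and 3.41% of all genes. The median log2 fold change was 0.16 and 0.17 in these comparisons, against -0.01 and 0.00 over all genes. With DV200 in the fit, 4 genes were called in the former and 1 in the latter, and with the 2 group 2b samples of 1 dog alone, 1 was called in the former. Without group 2a replicate 2 or replicate 4, 2 were called in 2b vs 2a.

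**Figure D4:**
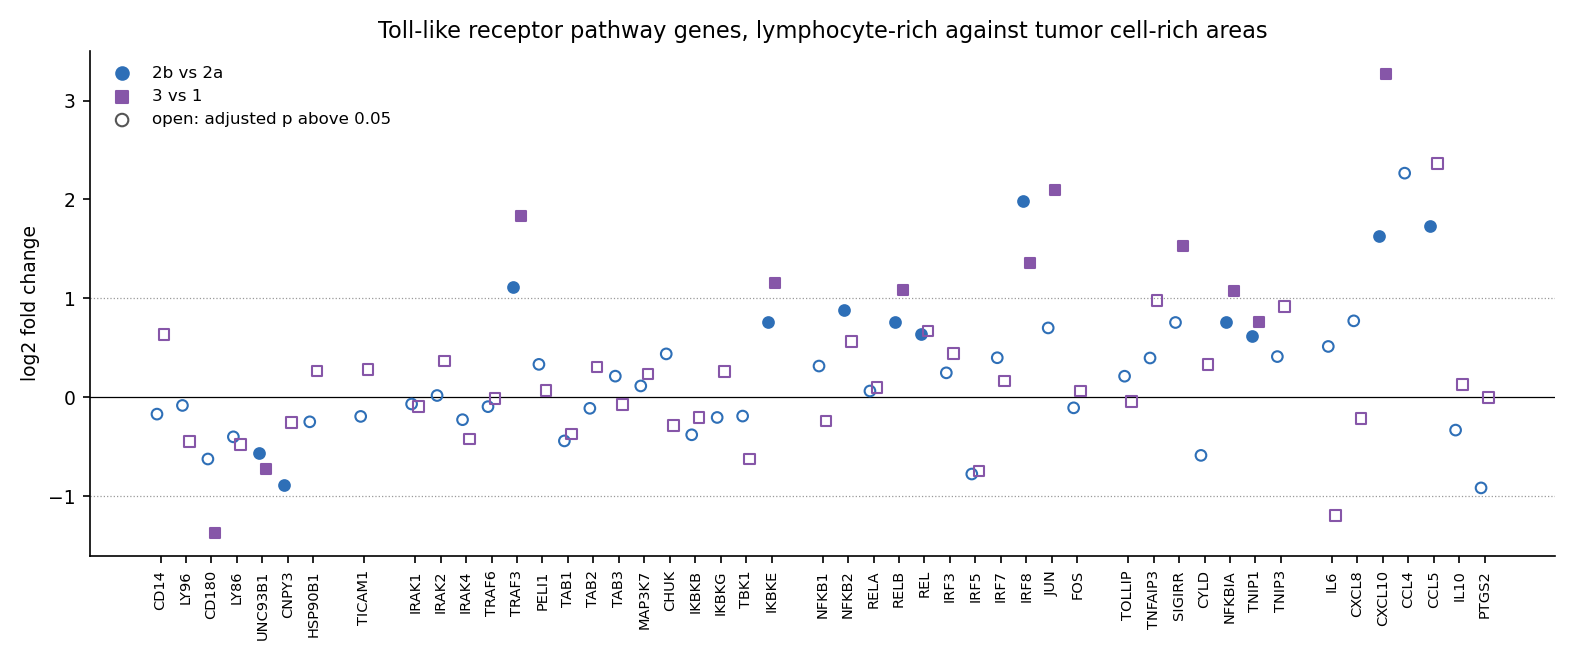
Log2 fold changes (y axis) of the pathway genes that were tested (x axis, in the order of the 6 lists) in 2b vs 2a (blue circles) and 3 vs 1 (purple squares), filled where the adjusted p was at most 0.05, with dotted lines at 1 and -1. TRAF3, IRF8 and CXCL10 lie above 1 and are filled in both, and CD180 is the one filled point below -1.

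Of the 7 tested partners and transport factors, 0 were called in 2b vs 2a and CD180, a TLR4-related surface protein that restrains its signaling in some cells and promotes it in B cells, was called lower in group 3 than in group 1. CD180 ranged from 579 to 902 in group 1 and from 265 to 368 in group 3, without overlap, and its log2 fold change was -1.37 (SE 0.173, edgeR adjusted p 0.00137). Among all genes, 5.83% had all group 3 samples below all group 1 samples, and 3.41% were called lower. By the adjusted p alone, UNC93B1, the chaperone that carries TLR3, TLR7 and TLR9 to endosomes, was also lower in group 2b than in group 2a (-0.56, adjusted p 0.0440) and in group 3 than in group 1 (-0.72, adjusted p 0.0342). CNPY3, a chaperone of several TLRs, was lower in group 2b than in group 2a (-0.89, adjusted p 0.00151), at 199 to 301 against 384 to 599. At this p, 7.64% of all genes were lower in 2b vs 2a. These 2 genes, below the fold threshold, are named after their values were seen.

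Among the 15 kinases and ubiquitin ligases, TRAF3, which links TLRs to interferon regulatory factors, was called higher in 2b vs 2a and in 3 vs 1. In the former, RQN differs along with area, and in the latter, stage and DV200 do, and these cannot be told apart. TRAF3 had 86.6 to 146 in group 2b against 40.6 to 70.0 in group 2a, without overlap, as 6.07% of all genes had with a higher level. It had 63.0 to 85.6 in group 3 against 7.65 to 40.3 in group 1. Its log2 fold changes were 1.11 (SE 0.204, edgeR adjusted p 0.00209) and 1.84 (SE 0.392, edgeR adjusted p 0.0112). IKBKE, a kinase of interferon regulatory factors, was called in 3 vs 1 (1.16). In 2b vs 2a IKBKE passed the adjusted p but not the fold threshold (0.76). At any fold size, 8.90% of all genes passed that p with a higher level. For TRAF3 the stage steps (2 to 3 in lymphocyte-rich, 1 to 2 in tumor cell-rich areas) also differed, by -1.77 (SE 0.417, edgeR adjusted p 0.0184). HSP90B1, a chaperone of TLRs from the partner list, was the other pathway gene for which they did (-1.38, SE 0.341, edgeR adjusted p 0.0228). These are 2 of 48 tested pathway genes, beside the 5.34% of all genes. Of the tumor cell genes, CDH1 (2.65), DLA-DRA (-2.27) and LYZ (-6.16) passed the same test, as did PKP1 (3.76) among 7 keratinocyte genes, and the part of these cells was not tested.

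Of 11 transcription factors, IRF8 was called higher in both comparisons. It encodes an interferon regulatory factor of dendritic and B cells, with 619 to 1039.8 in group 2b, 119 to 328 in group 2a, 219 to 763 in group 3 and 134 to 284 in group 1, and log2 fold changes of 1.98 (SE 0.245, edgeR adjusted p 0.000147) and 1.36 (SE 0.326, edgeR adjusted p 0.0186). JUN (2.09) and RELB (1.09) were called in 3 vs 1 only, and the difference between the comparisons was not tested for them. In 2b vs 2a RELB passed the adjusted p but not the fold threshold (0.76, edgeR adjusted p 0.0161). So did NFKB2 (0.88, edgeR adjusted p 0.00663) and REL (0.64, edgeR adjusted p 0.0334), named after their values were seen. At any fold size, 8.90% of all genes passed that p with a higher level. Of 7 tested negative regulators, 0 were called in 2b vs 2a and SIGIRR (1.53) and NFKBIA (1.07), an NF-κB inhibitor that NF-κB itself induces, were called higher in group 3 than in group 1. NFKBIA (0.76, edgeR adjusted p 0.00161) and TNIP1 (0.62, edgeR adjusted p 0.0366) passed the adjusted p alone in 2b vs 2a. TNIP1 did so in 3 vs 1 as well (0.77, edgeR adjusted p 0.0238). Of the target genes, CXCL10, an interferon-induced chemokine, was called in 2b vs 2a (1.63), where 7 were tested, and in 3 vs 1 (3.27), where 6 were tested. CCL5, a chemokine that T cells also make, was called in 2b vs 2a (1.73). CXCL10 was at 17.7 to 118 in group 2b, 9.998 to 36.8 in group 2a, 35.3 to 63.2 in group 3 and 0 to 14.2 in group 1. The 5 group 3 samples were enough to bring CXCL10 through the count filter in 3 vs 1, so a difference may be built in there. T cell genes moved along with these lists. Of 6 tested, 5 were called higher in 2b vs 2a and 2 in 3 vs 1, beside 5.98% and 4.92% of all genes. Their part in the pathway genes was not tested.

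For each entry with a median of at least 10 counts, the genes with the most similar pattern over the 21 samples were taken from 11199 genes by Pearson's r of log2(normalized count + 1), as a description over samples that share groups. For MYD88 these were ADPRH (r = 0.88), RNF13 (0.84) and TMEM50A (0.83), and for TLR4 they were L3MBTL3 (0.90), NDST1 (0.86) and PRDM10 (0.84). For TLR9_6 they were SLC27A1 (0.82), ZDHHC14 (0.81) and LOC491550 (0.81), and for TLR9_5 ADCY9 (0.73), SIAH2 (0.71) and TMSB4X (0.70), so the 2 TLR9 entries shared none of their nearest genes. The r between TLR9_5 and TLR9_6 was 0.28. TLR7 was nearest to AFTPH (0.80), RASSF2 (0.79) and CCDC136 (0.79), TLR2 to SCG3 (0.79), SNX24 (0.76) and MBOAT1 (0.75), and TLR3 to DAPK2 (0.75), SHE (0.74) and MAD2L1BP (0.72). No member was among the 3 genes nearest to another.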

How the data were processed

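RNA of 21 archival CCH samples was sequenced with a QuantSeq 3′ FWD kit. Per the paper's methods and the submitters' processing notes, the authors used cutadapt for trimming, STAR for alignment (UU_Cfam_GSD_1.0), featureCounts for counting and DESeq2 for their comparisons. Strand setting, treatment of multi-mapping reads and versions are not given in the sources used here. The authors deposited raw counts and a signal, the counts divided by 1 size factor per sample (normalized count), in 2 tables with identical values; 0 columns belonged to unknown samples. The authors also deposited log2 fold changes and p-values of their own comparisons, which were not used. Groups came from the sample labels.

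Here counts were tested with edgeR 4.0.16 in R 4.3.3 (TMM, quasi-likelihood F-test) on the samples of the 2 groups compared, for genes with at least 10 counts in at least 5 samples, with Benjamini-Hochberg adjustment over all tested genes; called genes had an adjusted p no higher than 0.05 and a log2 fold change of 1 or more in either direction. The interaction, (3 minus 2b) minus (2a minus 1), used all 21 samples and the adjusted p alone. The SE is the size of the log2 fold change divided by the square root of F. The 95% intervals are normal, from the SE, and narrower than the F-test implies at these sample sizes. Also tried were DESeq2 1.42.0, a limma fit (3.58.1) to log2(normalized count + 1), other factors, filters and thresholds, DV200 or the replicate number as a term, pooled or 1-dog samples only, and leaving out each sample. The script was tested on simulated data. Python 3.11.15, pandas 2.3.3 and matplotlib 3.10.9 were used. Positions are from RefSeq, matched by symbol.

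The genes, lists and tests were chosen with earlier results of these data known. The B cell list is given without 1 gene that is not reported here. All members are named; of each pathway list, every called gene is named, or the 2 highest and 2 lowest log2 fold changes where more than 4 were called, and the 3 genes nearest to each member. At 2113393 to 3559404 counts per sample, a gene with 0 counts may have up to 3, counting error only. Replicate numbers mark different dogs, and samples with the same number did not deviate together (correlations of -0.31 to 0.15), so they pair nothing.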

Additional observations from a re-analysis of the deposited data

Results flagged for a closer look

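For 35 pairs of entry and group, the highest and the lowest sample were compared with the rest, and 1 stood apart by Dixon's 95% limit, where chance alone gives about 1 in 20. It was TLR9_5 in replicate 5 of group 1, with a normalized count of 424 against 196 to 241 in the other 4 samples of the group. The same sample had the highest TLR9_6 of group 1 (17.5 against 1.87 to 8.20).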

How the results depend on the processing

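The limits lie in the counts: TLR1, TLR10 and TLR9_6 rest on few reads, and group 2b on 4 pools and 2 samples of 1 dog. In 2b vs 2a, 0 entries were called with at least 10 counts in every sample, with only the 1-dog samples or only the pools, since TLR9_6 then had too few counts to be tested. With all genes tested, TLR9_6 was not called in the 1-dog samples (0 entries called), and 0 were called with both TLR9 entries added up; these settings were chosen after seeing the data. In 3 vs 1, 1 entry (MYD88) passed without the threshold on the log2 fold change. Leaving out each sample in turn changed no count of called entries. The other settings left all counts as they were.

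Some log2 fold changes turned their sign, and none of them was called in any setting; the farthest from 0 was that of TLR2 in 2a vs 1 (0.56). With DV200 as a term, TLR2, TLR4 and TLR9_5 in 2a vs 1 came to -0.36, 0.029 and 0.18, TLR3 in 3 vs 2b to -0.22 and TLR9_5 in 3 vs 1 to 0.60. With limma, TLR4 in 2a vs 1 came to 0.27, TLR3 in 3 vs 2b to -0.040, MYD88 in 2b vs 2a to 0.041 and TLR9_5 in 3 vs 1 to 0.035. TLR9_5 came to -0.052 in 3 vs 2b with the pools only, to -0.10 in 2b vs 2a with the 1-dog samples only, and in 3 vs 1 to 0.021 with at least 10 counts in every sample and to 0.025 with the entries added up. TLR4 in 3 vs 1 came to -0.00052 with upper-quartile factors and to -0.020 with all genes. The cause was not tested.

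The replicate block, with the replicate number as a term although it pairs no dogs, gave 0.22 for TLR4 in 2a vs 1, -0.036 for TLR1 and 0.060 for MYD88 in 2b vs 2a and 0.037 for TLR9_5 in 3 vs 1, and took the adjusted p of MYD88 in 3 vs 1 to 0.0738. TLR9_6 stayed called in 2b vs 2a (3.14, adjusted p 0.0139). Over all genes it moved the calls from 44 to 0 in 2a vs 1, from 5 to 1 in 3 vs 2b, from 1102 to 934 in 2b vs 2a and from 955 to 772 in 3 vs 1.

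Leaving out each sample in turn gave, for the values that turned their sign, -0.37 to 0.36 (TLR4) and -0.42 to 0.055 (TLR9_5) in 2a vs 1, -0.41 to 0.46 (TLR3) and -0.073 to 0.14 (TLR9_5) in 3 vs 2b, -0.26 to 0.42 (TLR1) and -0.19 to 0.18 (MYD88) in 2b vs 2a, -0.77 to 0.052 (TLR3), -0.28 to 0.44 (TLR4), -0.54 to 0.090 (TLR7) and -0.15 to 0.25 (TLR9_5) in 3 vs 1, and -0.0028 to 0.48 for the difference of the stage steps of TLR9_5.

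Over all genes, the calls moved by more than 1.5 times in these settings. In 2a vs 1 there were 262 with DESeq2, 178 with all 4 groups in 1 fit, 77 with at least 10 counts in every sample, 0 with DV200 and 0 to 78 without 1 sample, against 44. In 3 vs 2b there were 52 with DESeq2, 3 with all genes tested, 2 with all 4 groups in 1 fit or with DV200, 0 with the pools or the 1-dog samples only and 0 to 50 without 1 sample, against 5. In 2b vs 2a there were 670 with at least 10 counts in every sample, and with the 1-dog samples only 111 or, with all genes tested, 291, against 1102. In 3 vs 1 there were 62 with DV200 and 580 to 1027 without 1 sample, against 955. For the difference of the stage steps, 1076 genes passed with DESeq2, 441 with all genes tested and 331 to 757 without 1 sample, against 668.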
